A study of Mus musculus with 7 samples.

Results

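Tfrc, Slc3a2, Slc7a5 and Slc1a5 encode the transferrin receptor and a set of amino-acid transporters, and their transcripts were followed in single-cell RNA counts of mouse thymocytes sorted around the split of the αβ and γδ T-cell lineages. The genes were chosen by their symbols and make up 4 of the 32286 features counted. WT C57BL/6 mice of 6 to 8 weeks gave 5 sorted subsets of double-negative (DN, without CD4 and CD8) cells, namely DN3a, then DN3b and DN4 cells without a γδ T-cell receptor (TCR) at the surface (γδ−), and DN3b and DN4 cells with one (γδ+). Mice of genotype Lat-/-TCRd-H2BEGFP on the same background, called Lat-KO here, lack the adaptor LAT that carries TCR signals and bear a green fluorescent reporter of Trdc, and gave DN3 γδ− and DN3 γδint. DN3a cells precede selection, DN3b and DN4 γδ− cells have passed selection on the pre-TCR, and DN3b and DN4 γδ+ cells have passed it on the γδ TCR. WT subsets came from pooled thymi of both sexes. Each subset was mixed with 500 splenic B cells, and gave 1 library, so that no test compares subsets and every interval below covers counting error only.

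Tfrc, also known as CD71, takes up iron bound to transferrin. Slc3a2 (CD98 heavy chain) is the glycoprotein chain that brings several light chains to the cell surface. Slc7a5 (LAT1, unrelated to the adaptor LAT) is one of these light chains and imports large neutral amino acids such as leucine. Slc1a5 (ASCT2) is a glutamine and neutral amino-acid transporter. Thymocytes that pass selection on the pre-TCR grow and divide, and CD71 and CD98 are widely used surface markers of that step. The sort itself used CD71: WT DN3a cells were CD71 low, DN3b γδ− cells CD71 high and DN4 γδ− cells CD71 positive, whereas the gates of WT DN3b γδ+, DN4 γδ+ and both Lat-KO subsets did not select on it. Tfrc differences among the first 3 subsets therefore describe the sort.

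Tfrc is set apart from the other 3 genes in its 3′ UTR, where iron-responsive elements lie. These are hairpins bound by the iron regulatory proteins, which protect the Tfrc transcript when iron is short and block translation of ferritin transcripts through the same hairpin in the 5′ UTR. A search for the hairpin core (an unpaired C, 5 paired bases with G to U pairs allowed, the loop CAGTGN whose last base was not G, and the 5 paired bases of the other arm) in the longest GENCODE vM21 transcript of each protein-coding gene matched 204 of 21877 genes (0.933%). Tfrc had 4 matches, all in the 3′ UTR on the plus strand of chromosome 16 (GRCm38, the sequence of mm10), and no other gene had more than 2. Slc3a2, Slc7a5 and Slc1a5 had none. The matched sites are shown with the loop in capitals, followed for comparison by the 5′ UTR matches of both ferritin chains, Fth1 and Ftl1, and of the iron exporter Slc40a1, where Slc40a1 and Ftl1 lie on the minus strand:
Tfrc, chr16:32631225-32631241: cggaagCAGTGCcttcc
Tfrc, chr16:32631604-32631620: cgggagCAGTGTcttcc
Tfrc, chr16:32631669-32631685: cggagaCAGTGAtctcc
Tfrc, chr16:32631716-32631732: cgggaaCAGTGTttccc
Fth1, chr19:9982738-9982754: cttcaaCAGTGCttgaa
Ftl1, chr7:45459785-45459801: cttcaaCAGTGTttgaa
Slc40a1, chr1:45925471-45925487: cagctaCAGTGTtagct

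All 4 genes are protein coding. In GRCm38, Tfrc (ENSMUSG00000022797) spans chromosome 16 from 32608920 to 32632794 on the plus strand, Slc3a2 (ENSMUSG00000010095) chromosome 19 from 8706882 to 8723369 on the minus strand, Slc7a5 (ENSMUSG00000040010) chromosome 8 from 121881150 to 121907694 on the minus strand and Slc1a5 (ENSMUSG00000001918) chromosome 7 from 16781340 to 16798274 on the plus strand. RefSeq promoter windows around the start sites (GRCm38.p6) of Tfrc and Slc3a2 were searched on both strands. Neither the E-box CACGTG, found in 7.15% of 32851 windows, nor TGATGNAA, the core of the amino-acid response element, found in 3.97%, was in these windows.

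Each library held 49407750 to 375688164 UMIs (molecular tags, 1 per captured transcript). After the quality filter 79076 barcodes remained. A thymocyte barcode was one with at most 1 UMI of the B cell genes Cd79a, Cd79b and Ms4a1 together, which kept 71081. Of the 7995 barcodes left out, 6615 had only 2 to 9 such UMIs, and 98.7% of those also had a Cd3 UMI. When they were kept, an alternative chosen after seeing the data, 3 of 28 ratios between libraries were past 2-fold, as without them. Thymocyte barcodes had a median of 5737.5 (Lat-KO DN3 γδint) to 18506 UMIs (WT DN4 γδ−). All 10 T-cell markers were detected in each library, with a sum of 6911 to 13660 CPM (UMIs of a gene scaled to a common total of UMIs). Lat was at 357 to 648 CPM in the WT libraries and at 4.83 and 0.899 CPM in the Lat-KO ones. Of the 5 NK markers, Ncr1 was at 0 in all libraries and Gzma made up nearly all of the sum, which ran from 221 to 2455 CPM and was highest in WT DN4 γδ+. The erythroid list summed to 0.354 to 170.2 CPM, highest in WT DN4 γδ−. The myeloid list summed to 98.9 to 191 CPM, of which Cst3 gave most. The B cell list summed to 317 to 2529 CPM, led by Ly6d and Ighm. Ribosomal-protein genes took 27.7% to 33.8% of UMIs in 6 libraries and 18.2% in Lat-KO DN3 γδint, whose B cell barcodes were likewise low at 20.2%. Alternatives left out barcodes rich in haemoglobin UMIs, those without a Cd3 UMI, or those with any UMI of Cd79a, Cd79b and Ms4a1. In each, the cycling fit given below still called 3 of the followed genes higher and 0 lower. Without haemoglobin-rich barcodes the log2 ratio of Tfrc in WT DN4 γδ− over DN3b γδ− was -0.07, as with them. The part of the remaining markers, among them the myeloid and NK lists, was not tested. Ratios with ribosomal and mitochondrial genes left out of the total are given for the Lat-KO pair. Libraries shared 7 to 68 barcode sequences per pair, at most 0.66% of the smaller library.

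Barcodes with at least 2 UMIs of Mki67 and Top2a together, genes of dividing cells, were called cycling and those with 0 non-cycling. Cycling barcodes made up 6.16% of WT DN3a, 88.4% of DN3b γδ−, 83.6% of DN4 γδ−, 80.8% of DN3b γδ+, 18.4% of DN4 γδ+, 8.87% of Lat-KO DN3 γδ− and 23.3% of Lat-KO DN3 γδint. They were deeper than the non-cycling ones in every library, with medians of 12113 to 19996 against 4438.5 to 7658 UMIs. The call thus moved with depth.

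Levels are given in CPM, and other scalings shift whole libraries by the amounts given with the stage comparisons. Tfrc was higher in the 4 selected WT subsets than in the other 3. Its level over all thymocyte barcodes was 31.6 CPM in WT DN3a. DN3b γδ− had 72.4 CPM, DN3b γδ+ 72.5, DN4 γδ− 69.1 and DN4 γδ+ 57.1, while the Lat-KO subsets had 20.4 (γδ−) and 33.2 (γδint). DN3b γδ+ and DN3b γδ− did not differ beyond counting error, nor did Lat-KO DN3 γδint and WT DN3a, while all other neighbours in the order did. When each barcode was thinned to 4000 UMIs, leaving out 4.55% to 20.3% of barcodes as too shallow, 24.3% (95% interval 23.7 to 24.9) of WT DN3b γδ− and 23.5% (22.7 to 24.3) of DN3b γδ+ barcodes had a Tfrc UMI, against 7.2% (6.57 to 7.88) in Lat-KO DN3 γδ−. Without thinning these shares were 64.3%, 56.6% and 13.6%. In 86 barcodes of the added B cells of at least 4000 UMIs, pooled over libraries, the share was 6.98% (2.6 to 14.6). The Tfrc shares of Lat-KO DN3 γδ−, of Lat-KO DN3 γδint (10.6%) and of WT DN3a (11.4%) lay within that interval. In CPM the B cell barcodes had 19.3 (12.7 to 28.1), an interval that holds the level of Lat-KO DN3 γδ− and lies below those of the other 2. B cell barcodes had median depths of 2338 to 3819.5 UMIs per library.

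Slc7a5 was the most variable of the transporters. WT DN3a had 19.7 CPM. DN3b γδ− had 33.1 CPM, DN3b γδ+ 29.8, DN4 γδ− 33.2 and DN4 γδ+ 9.27, while the Lat-KO subsets had 13.8 (γδ−) and 24.1 (γδint). The highest level was 3.58 times the lowest, and DN4 γδ− and DN3b γδ− were the only neighbours in the order that did not differ beyond counting error. At 4000 UMIs a Slc7a5 UMI was found in 11.7% (11.1 to 12.3) of WT DN4 γδ− barcodes and in 2.78% (2.41 to 3.2) of WT DN4 γδ+ barcodes. Without thinning the shares were 41.6% and 5.76%. B cell barcodes held 4 Slc7a5 UMIs in all, which is 2.86 CPM (0.778 to 7.31).

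Slc3a2 varied least. WT DN3a had 129.7 CPM. DN3b γδ− had 108 CPM, DN3b γδ+ 124, DN4 γδ− 96.7 and DN4 γδ+ 104, while the Lat-KO subsets had 175 (γδ−) and 142 (γδint). The highest level was 1.81 times the lowest, and every neighbouring pair in the order differed beyond counting error. At 4000 UMIs 30.7% (29.8 to 31.5) of WT DN4 γδ− and 45.8% (44.6 to 47.1) of Lat-KO DN3 γδ− barcodes had a Slc3a2 UMI, whereas without thinning, where depths differ, the shares were 72.5% and 61.8%. The share in B cell barcodes was 25.6% (16.8 to 36.1).

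Slc1a5 was highest, in CPM, in Lat-KO DN3 γδint, a rank lost with TMM scaling, which is explained below. The log2 ratio over WT DN3a was then 0.71 in DN3b γδ− and 0.24 in Lat-KO DN3 γδ−. That of γδint over Lat-KO DN3 γδ− was 0.14. WT DN3a had 38.5 CPM. DN3b γδ− had 49 CPM, DN3b γδ+ 42.6, DN4 γδ− 36 and DN4 γδ+ 30.1, while the Lat-KO subsets had 51 (γδ−) and 66.9 (γδint). The highest level was 2.22 times the lowest, and Lat-KO DN3 γδ− and WT DN3b γδ− were the only neighbours that did not differ beyond counting error. At 4000 UMIs the shares ran from 11.02% (10.3 to 11.8) in WT DN4 γδ+ to 23% (21.8 to 24.2) in Lat-KO DN3 γδint. Unthinned, they were 19.3% and 35%. B cell barcodes had a share of 23.3% (14.8 to 33.6), and no thymocyte subset had a larger one.

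**Figure D1:**
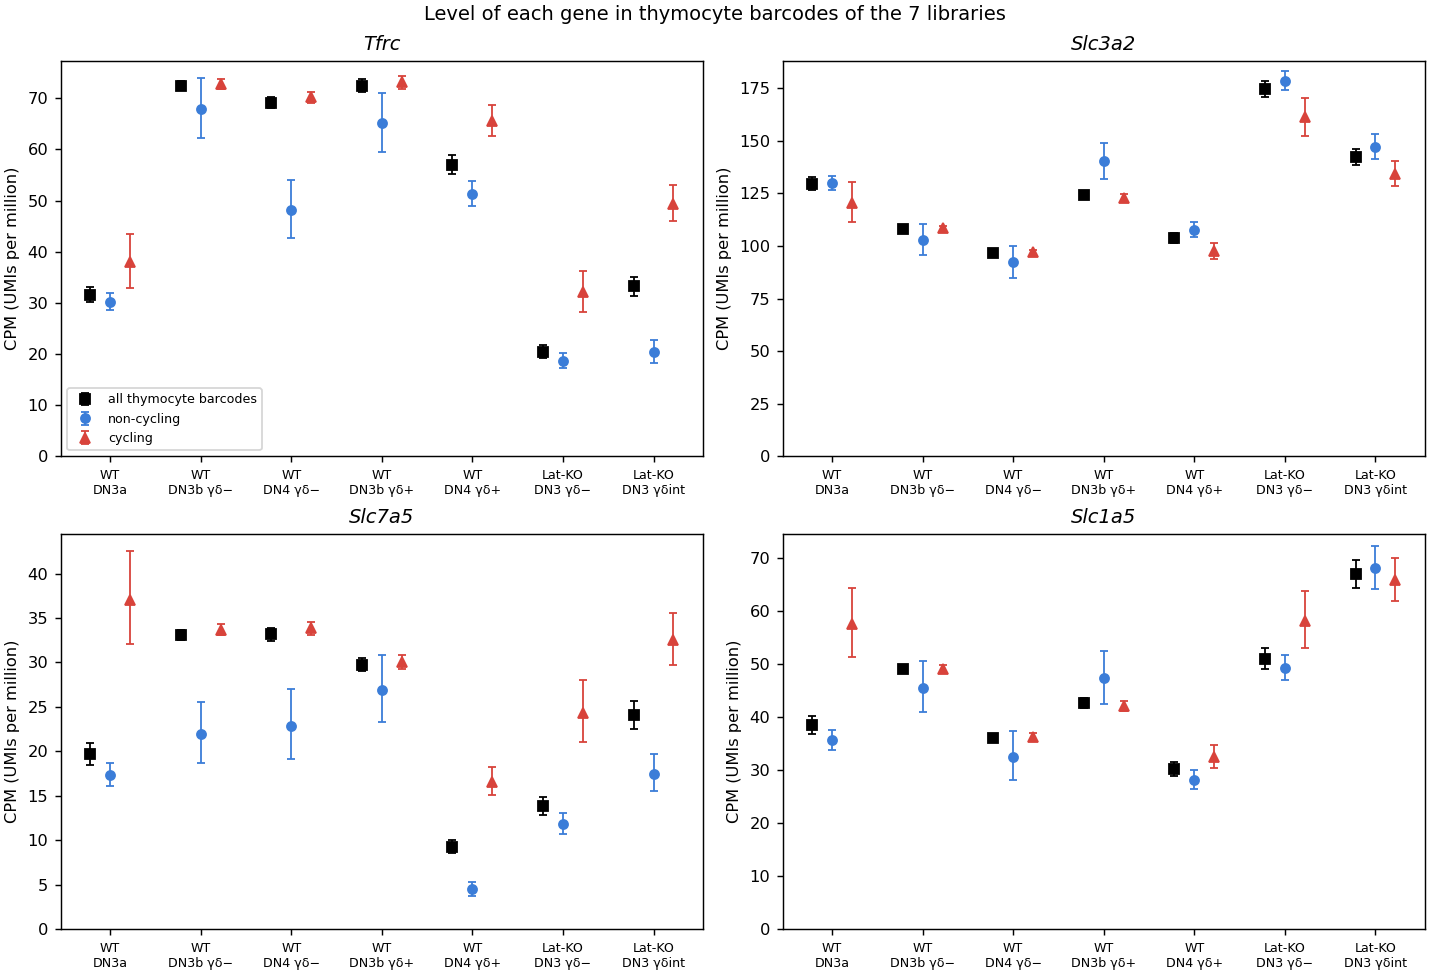
Level of Tfrc, Slc3a2, Slc7a5 and Slc1a5 (CPM, vertical axis from 0, 1 panel per gene) in the 7 libraries, over all thymocyte barcodes (squares), non-cycling (circles) and cycling barcodes (triangles), with exact Poisson 95% intervals. Tfrc is at 48.1 to 73.1 CPM in both states of the 4 selected WT subsets. In the other 3 it is at 18.7 to 30.3 CPM in non-cycling and 32.1 to 49.4 CPM in cycling barcodes. Slc7a5 is lowest in non-cycling WT DN4 γδ+ at 4.45 CPM.

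The first comparison asked whether the 4 genes were higher in dividing cells within the same subset. Tfrc and Slc7a5 were higher in cycling than in non-cycling barcodes in 7 of 7 libraries, with intervals excluding 0 in 6 of 7 each. Among 7385 genes of at least 20 CPM in 1 of the 14 sums, 22.9% were higher in 7 of 7. Slc1a5 was higher in 5 of 7, with an interval above 0 in 3 and below 0 in 1, and Slc3a2 in 2 of 7, with intervals below 0 in 4.

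Slc7a5 had the largest difference of the 4 genes in the fit across libraries given below. Its level in non-cycling and cycling barcodes was 17.3 and 37 CPM in WT DN3a. DN3b γδ− had 21.9 and 33.7 CPM, DN3b γδ+ 26.9 and 30.1, DN4 γδ− 22.8 and 33.8, and DN4 γδ+ 4.45 and 16.6. Lat-KO DN3 γδ− had 11.8 and 24.3 CPM, and γδint 17.5 and 32.5. The log2 ratio ran from 0.16 (-0.04 to 0.37) in WT DN3b γδ+ to 1.90 (1.63 to 2.18) in WT DN4 γδ+. The non-cycling levels spread over 6.04-fold and the cycling ones over 2.23-fold, and the 4.45 CPM of non-cycling WT DN4 γδ+ (3.76 to 5.23) lay within the interval of the B cell barcodes.

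Tfrc had a smaller difference in that fit, and unequal ones by library, larger than that of Slc7a5 in Lat-KO DN3 γδint (1.27 against 0.895). Its level in non-cycling and cycling barcodes was 30.3 and 37.9 CPM in WT DN3a. DN3b γδ− had 67.9 and 72.8 CPM, DN3b γδ+ 65.1 and 73.1, DN4 γδ− 48.1 and 70.2, and DN4 γδ+ 51.3 and 65.6. Lat-KO DN3 γδ− had 18.7 and 32.1 CPM, and γδint 20.5 and 49.4. The log2 ratio was largest in γδint at 1.27 (1.08 to 1.46) and smallest in WT DN3b γδ− at 0.10 (-0.03 to 0.23), the subset sorted as CD71 high. Non-cycling barcodes of WT DN3b γδ+ and DN3b γδ− did not differ in Tfrc beyond counting error.

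Slc3a2 changed by at most 0.19 in size on the log2 scale in any library. It was at 92.2 to 178 CPM in non-cycling and at 97 to 161 CPM in cycling barcodes, and fell by 0.19 (0.10 to 0.28) in WT DN3b γδ+. This fall and the 4 intervals below 0 are of CPM, which scales by total counts. With that scaling the median of all genes in the fit below was -0.16. Slc1a5 had its largest difference in WT DN3a, at 35.6 CPM in non-cycling and 57.6 CPM in cycling barcodes, a log2 ratio of 0.69 (0.51 to 0.87). In WT DN3b γδ+ it went the other way, from 47.3 to 42.1 CPM. In Lat-KO DN3 γδint it was at 68.2 and 65.9 CPM.

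**Figure D2:**
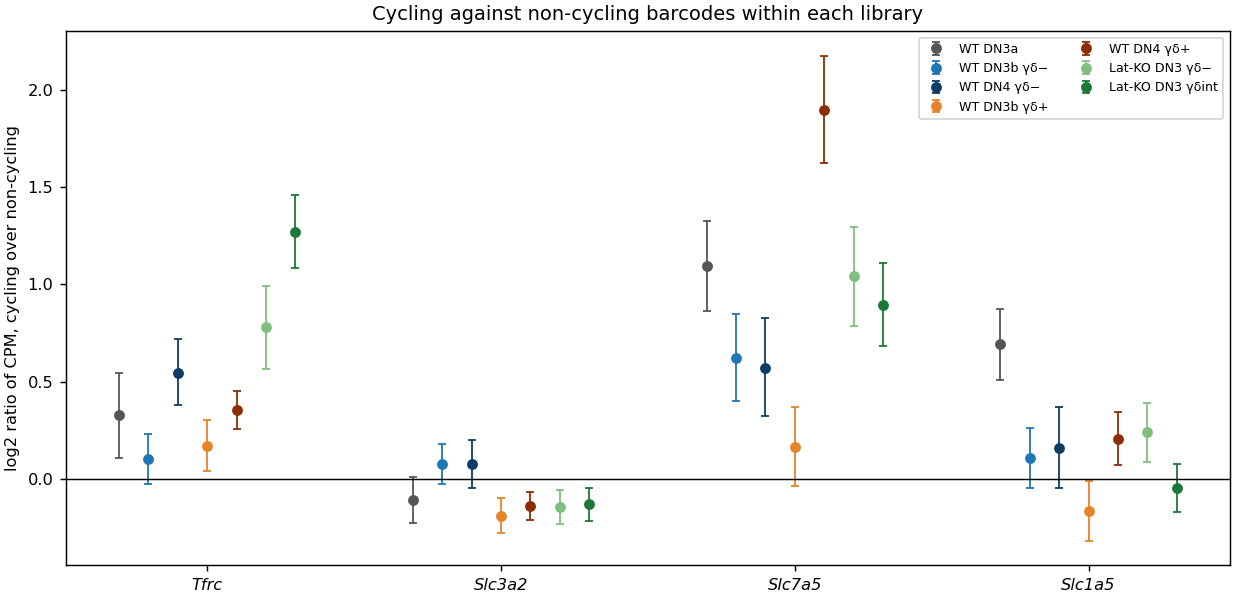
Log2 ratio of CPM in cycling over non-cycling barcodes (vertical axis) of each gene within each library (1 colour per library), with exact conditional binomial 95% intervals. All 7 points of Tfrc and of Slc7a5 lie above 0, up to 1.27 and 1.90, whereas the points of Slc3a2 lie between -0.19 and 0.08.

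A fit across all genes to the 14 sums (cycling and non-cycling barcodes of 7 libraries, library as a block) gave Slc7a5 a log2 difference of 1.02 ± 0.15 (SE, edgeR quasi-likelihood test, Benjamini-Hochberg adjusted p = 2.98e-04) and Tfrc one of 0.63 ± 0.13 (edgeR adjusted p = 0.00178). Slc1a5 had 0.30 ± 0.08 (edgeR adjusted p = 0.0107), and Slc3a2 had 0.05 ± 0.07 (edgeR adjusted p = 0.576). Thus 3 of the 4 genes were called higher and 0 lower, where 26.0% of 13483 genes were called higher and 22.3% lower (Mki67 and Top2a not counted). The libraries are different subsets of 2 genotypes, so the spread tested is that of the cycling difference between subsets, not between animals. TMM (trimmed mean of M-values) scales by a trimmed mean of the log ratios of genes. Scaling by total counts instead, added after seeing the data, moved the median of all genes from -0.02 to -0.16. The calls went from 3500 higher and 3005 lower to 2524 and 4643. Slc1a5 then lost its call (edgeR adjusted p = 0.144) and Slc3a2 turned to -0.08 (edgeR adjusted p = 0.181), while Slc7a5 and Tfrc remained called. With barcodes thinned to 4000 UMIs before the states were called, no member was called, with log2 differences of 0.53 for Slc7a5 (edgeR adjusted p = 0.0623) and 0.33 for Tfrc (edgeR adjusted p = 0.11). In the WT libraries alone Tfrc had 0.36 (edgeR adjusted p = 0.01235) and Slc7a5 0.92 (edgeR adjusted p = 0.0132), both called, while Slc1a5 was not (0.26, edgeR adjusted p = 0.0867). With the thinned counts but the states of the full counts, which was added after seeing the data, both were called and Slc1a5 was not (edgeR adjusted p = 0.0876).

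Counting Mki67 and Top2a UMIs at the common depth of 4000 showed where each gene changed. In WT DN4 γδ+, Slc7a5 was at 0.0499 UMIs per 10000 (0.0405 to 0.0607) in barcodes with 0 such UMIs, 0.0841 with 1, and 0.201 (0.134 to 0.291), 0.159 and 0.206 with 2 to 3, 4 to 7, and 8 or more. In WT DN3b γδ+ the same 5 bins ran from 0.275 to 0.315 with overlapping intervals. Slc7a5 thus differed between these subsets most in the bin with 0 such UMIs at this depth. In WT DN3b γδ+ that bin held 2183 barcodes, of which 701 had 0 such UMIs before thinning. In WT DN4 γδ+ the numbers were 4964 and 4243.

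Tfrc followed the number of cycling UMIs in Lat-KO DN3 γδint, with 0.222 UMIs per 10000 (0.196 to 0.251) at 0, 0.275 at 1, 0.447 at 2 to 3, 0.565 at 4 to 7 and 0.616 (0.476 to 0.783) at 8 or more. In Lat-KO DN3 γδ− it was 0.182 (0.164 to 0.201), 0.200 and 0.101 in the first 3 bins, and 0.411 (0.219 to 0.704) and 0.474 (0.237 to 0.848) in the last 2, which held few barcodes. In WT DN4 γδ+ it was 0.519, 0.552, 0.632, 0.597 and 0.515 in the 5 bins, with overlapping intervals, and in WT DN3b γδ− it ran from 0.678 to 0.745. Slc1a5 was lowest in the top bin in WT DN3b γδ−, at 0.413 (0.377 to 0.451) against 0.524 at 2 to 3, and in WT DN3b γδ+, at 0.348 (0.299 to 0.402) against 0.503. Slc3a2 was also lowest in the top bin in WT DN3b γδ+, at 1.17 (1.07 to 1.26) against 1.34 (1.27 to 1.43) at 1, but ran from 1.02 to 1.10 with overlapping intervals in WT DN3b γδ−. In Lat-KO DN3 γδ− it was at 1.80 (1.74 to 1.86) at 0 and at 1.03 (0.663 to 1.54) in the top bin of 58 barcodes.

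**Figure D3:**
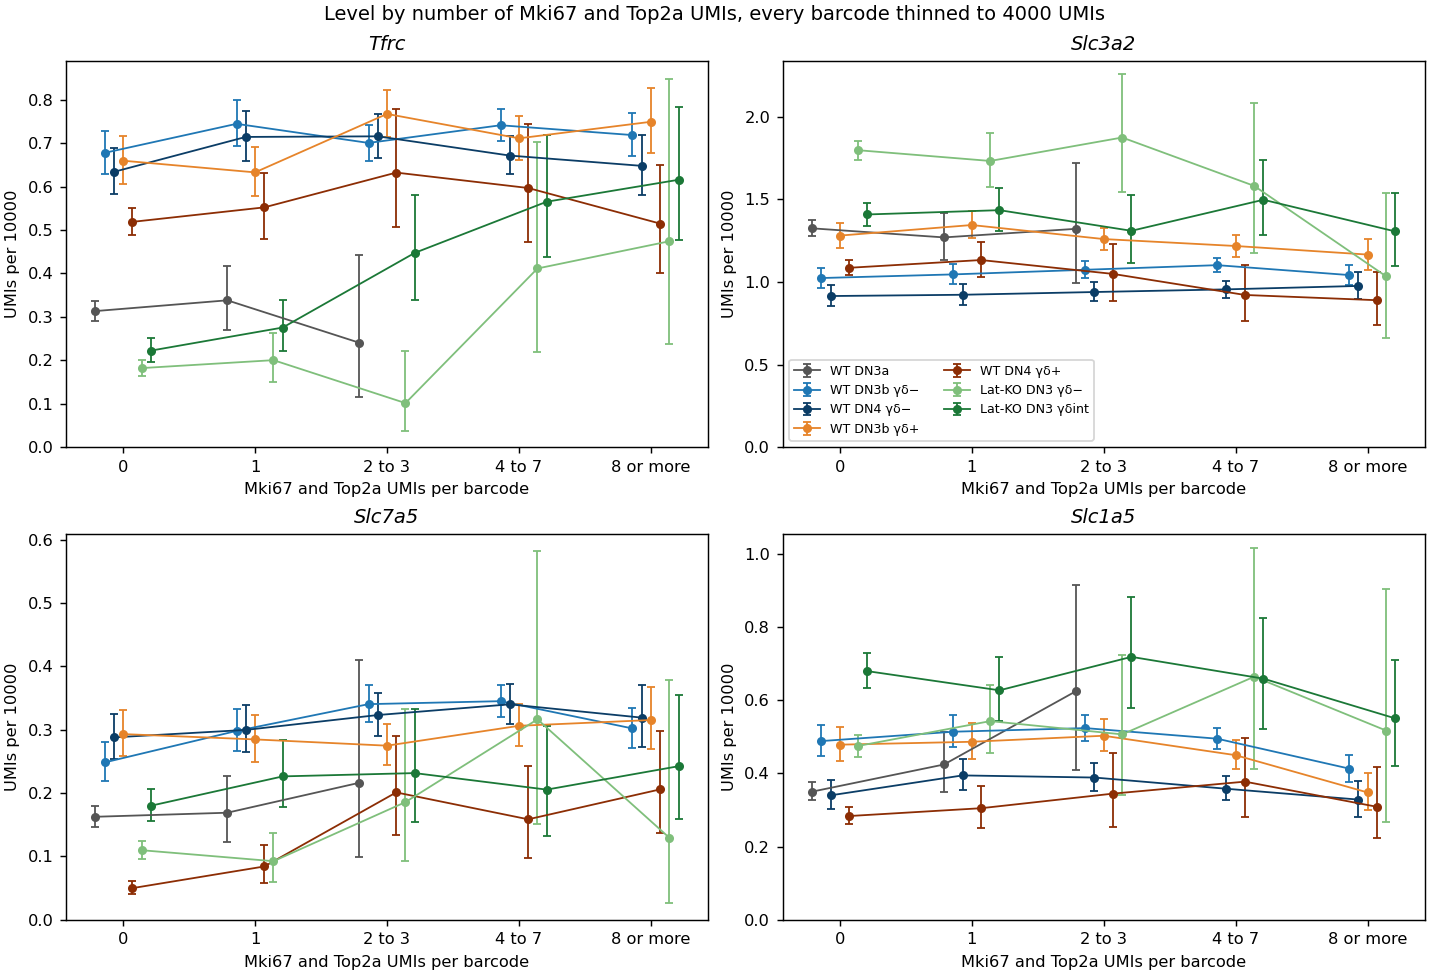
UMIs of each gene per 10000 (vertical axis from 0) by the number of Mki67 and Top2a UMIs in a barcode (horizontal axis, 5 bins), with every barcode thinned to 4000 UMIs, 1 line per library and exact Poisson 95% intervals. Bins of under 20 barcodes are left out. The Slc7a5 line of WT DN4 γδ+ starts at 0.0499 and the Tfrc line of Lat-KO DN3 γδint climbs from 0.222 to 0.616.

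The next comparison followed the genes along the stages. Of 28 ratios (4 genes, 7 pairs of libraries), 3 were past 2-fold over all thymocyte barcodes, 3 over non-cycling barcodes and 0 over cycling barcodes, in which all 3 kept their direction. The share of all genes past 2-fold, given below, was counted over all and non-cycling barcodes but not over cycling ones. TMM scaling would shift all log2 ratios by 0.36 and 0.32 for DN3b γδ− and DN3b γδ+ over WT DN3a, by -0.30 for DN4 γδ+ over DN3b γδ+, and by -0.17 and -0.25 for the Lat-KO pairs. Before that shift the median log2 ratio of genes of at least 20 CPM in either library was 0.22 and 0.23 in the Lat-KO pairs. It was between -0.11 and 0.02 in the others. TMM scaling thus moved this median towards 0 in the Lat-KO pairs. In DN3b γδ− and DN3b γδ+ over WT DN3a and in DN4 γδ+ over DN3b γδ+, it moved the median away from 0. Ratios with TMM scaling are therefore given as an alternative, not as corrected values.

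From WT DN3a to DN3b γδ+, on the γδ path, Tfrc had a log2 ratio of 1.20 (1.13 to 1.27) over all barcodes, 1.11 (0.95 to 1.26) over non-cycling and 0.95 (0.75 to 1.15) over cycling ones. DN3a was sorted as CD71 low, so the sort enters the lower arm. Past 2-fold were 24.9% of genes of at least 20 CPM in either library over all barcodes and 19.8% over non-cycling ones, and Tfrc was the single member among them in both. From DN3a to DN3b γδ−, Tfrc had 1.20 over all and 1.17 over non-cycling barcodes, as sorted, where 26.1% and 16.4% of genes were past 2-fold.

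The ratio of Slc7a5 across this step depended on the state of the barcodes. Its log2 ratio of DN3b γδ− over DN3a was 0.75 (0.66 to 0.84) over all barcodes, 0.34 (0.09 to 0.59) over non-cycling and -0.14 (-0.34 to 0.07) over cycling ones. With TMM scaling the first became 1.11 and passed 2-fold. In DN3b γδ+ over DN3a the values were 0.60, 0.64 and -0.30. Slc1a5 had 0.35 (γδ−) and 0.15 (γδ+) over all barcodes and -0.23 and -0.45 over cycling ones. Over non-cycling barcodes it had 0.36 (0.18 to 0.53) and 0.41 (0.24 to 0.58). The 0.15 became -0.03 with ribosomal and mitochondrial genes left out of the total. The added B cells held 38 Slc1a5 UMIs in the DN3b γδ− library and 4 in that of DN3a, a log2 ratio of 2.17 (0.70 to 4.12) in the direction of the 0.35, and the part of that shift in it was not tested. Slc3a2 was at -0.26 and -0.06 over all barcodes, which turned to 0.10 and 0.26 with TMM scaling. In DN3b γδ− it was also lower over non-cycling (-0.34, -0.45 to -0.23) and cycling barcodes (-0.15, -0.27 to -0.04). Among the alternatives only TMM scaling turned that sign, so the direction hung on the scaling. In DN3b γδ+ it was at 0.11 (0.01 to 0.21) over non-cycling barcodes, and no direction can be given there.

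DN3b γδ+ and DN3b γδ− cells held near equal levels of the 4 genes. The log2 ratio of γδ+ over γδ− was 0.00 (-0.03 to 0.03) for Tfrc, although the γδ+ gate did not select CD71. It was 0.20 (0.18 to 0.22) for Slc3a2, -0.15 (-0.20 to -0.11) for Slc7a5 and -0.20 (-0.24 to -0.16) for Slc1a5. The added B cells of these libraries held 2 and 38 Slc1a5 UMIs, a log2 ratio of -1.86 (-4.96 to 0.09), whose part in the -0.20 was not tested. No member was past 2-fold, against 6.93% of genes over all barcodes and 9.18% over non-cycling ones, in which Slc3a2 reached 0.45 (0.31 to 0.58), and Slc7a5 (0.29, -0.01 to 0.60) and Slc1a5 (0.05, -0.16 to 0.27) were not lower.

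On the αβ path, DN4 γδ− over DN3b γδ− had no member past 2-fold, against 1.18% of genes over all and 2.98% over non-cycling barcodes. Slc1a5 was lower at 36 against 49 CPM, with a log2 ratio of -0.44 (-0.48 to -0.41) and -0.49 and -0.43 over non-cycling and cycling barcodes. The added B cells of these libraries held 6 and 38 Slc1a5 UMIs, a log2 ratio of -1.03 (-2.56 to 0.22). The part of such a shift in the Slc1a5 difference was not tested. Slc7a5 had 0.00 (-0.04 to 0.05) and Slc3a2 -0.16. Tfrc had -0.07 over all and -0.50 (-0.71 to -0.29) over non-cycling barcodes.

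On the γδ path, DN4 γδ+ over DN3b γδ+ parted Slc7a5 from the rest. Slc7a5 had a log2 ratio of -1.68 (-1.80 to -1.57) over all barcodes, -2.59 (-2.91 to -2.28) over non-cycling and -0.86 (-1.001 to -0.72) over cycling ones. Tfrc had -0.35, -0.34 and -0.16, Slc3a2 -0.26, -0.38 and -0.33, and Slc1a5 -0.50, -0.75 and -0.37. Slc7a5 was the single member past 2-fold, against 17.8% of genes over all and 23.2% over non-cycling barcodes. Non-cycling DN4 γδ+ barcodes thus held more Tfrc (51.3 CPM) than those of DN3a (30.3 CPM) but less Slc7a5 (4.45 against 17.3 CPM), with none of the intervals overlapping. DN3a was sorted as CD71 low and DN4 γδ+ was not selected on CD71, so the sort enters this Tfrc difference.

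In Lat-KO DN3 γδ−, Tfrc and Slc7a5 were lower and Slc3a2 and Slc1a5 higher than in WT DN3a. DN3 γδ− over WT DN3a had -0.63 (-0.74 to -0.51) for Tfrc and -0.51 (-0.65 to -0.37) for Slc7a5, but 0.43 (0.38 to 0.47) for Slc3a2 and 0.41 (0.32 to 0.49) for Slc1a5. With TMM scaling the signs held, at -0.80, -0.68, 0.26 and 0.24. The added B cells had more Slc1a5 UMIs in the Lat-KO library too, 22 against 4, a log2 ratio of 1.80 (0.24 to 3.80), and the part of that shift in the Slc1a5 difference was not tested. Over cycling barcodes Tfrc (-0.24, -0.52 to 0.03) and Slc1a5 (0.01, -0.20 to 0.23) did not differ beyond counting error. WT DN3a was sorted as CD71 low and Lat-KO DN3 γδ− was not selected on CD71. No member was past 2-fold, against 2.84% of genes over all and 2.75% over non-cycling barcodes. The paper describes a depletion of CD4 and CD8 cells before the sort for WT thymocytes, whereas Lat-KO cells were sorted from total thymocytes. Genotype, pool of mice, this depletion and library cannot be told apart here.

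DN3 γδint over DN3 γδ−, both Lat-KO, had 0.70 (0.58 to 0.82) for Tfrc, 0.80 (0.66 to 0.94) for Slc7a5, 0.39 (0.31 to 0.47) for Slc1a5 and -0.30 (-0.35 to -0.25) for Slc3a2. No member was past 2-fold, against 8.59% of genes over all and 4.95% over non-cycling barcodes. Over non-cycling barcodes Tfrc had 0.13 (-0.06 to 0.33), within counting error, while Slc7a5 kept 0.57 (0.34 to 0.79) and Slc1a5 0.47 (0.36 to 0.58). Over cycling barcodes Tfrc had 0.62 (0.42 to 0.84), Slc7a5 0.42 (0.18 to 0.67) and Slc1a5 0.18 (0.02 to 0.34). TMM scaling brought Slc1a5 to 0.14 and Slc7a5 to 0.55 over all barcodes. With ribosomal and mitochondrial genes left out of the total, the ratios over all barcodes were 0.50 for Tfrc, 0.60 for Slc7a5, 0.19 for Slc1a5 and -0.50 for Slc3a2. The added B cells of the 2 libraries held 9 and 22 Slc1a5 UMIs, a log2 ratio of -0.15 (-1.45 to 1.03), too few to show a shift of that size.

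**Figure D4:**
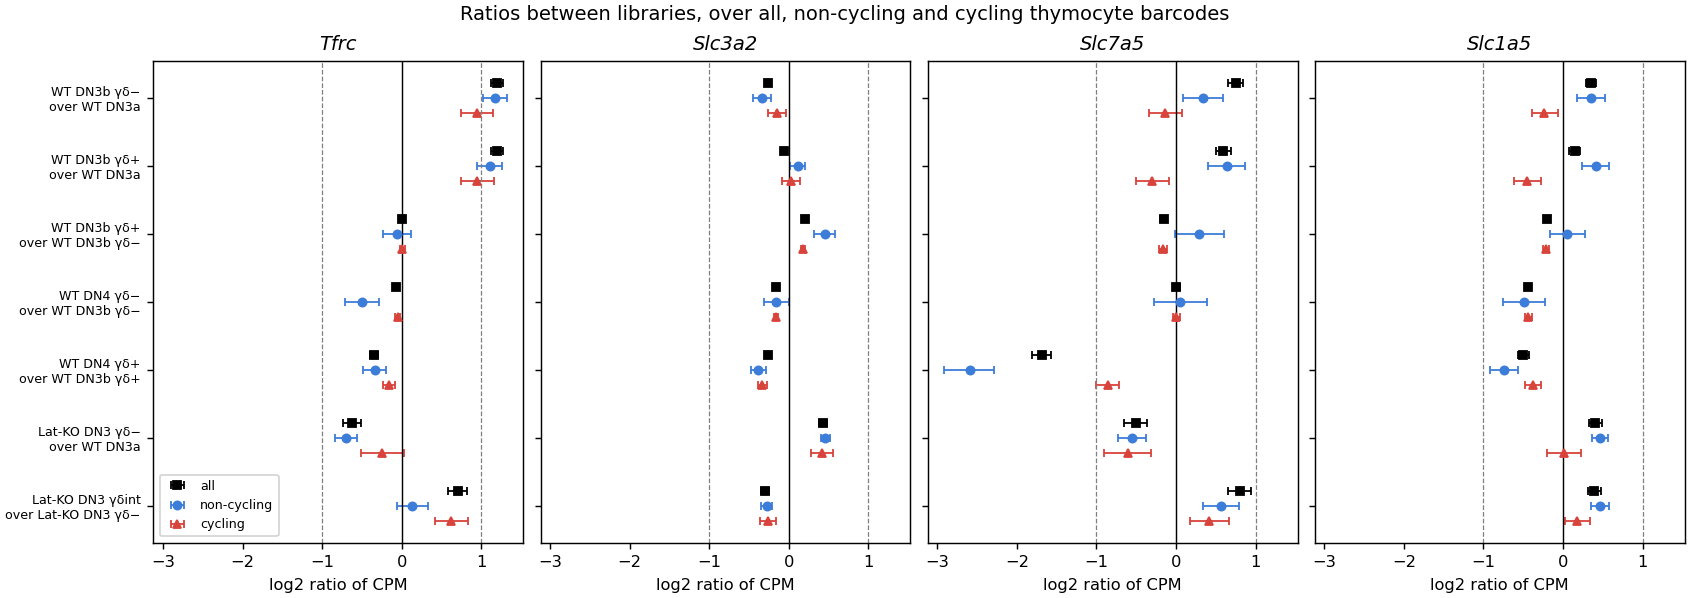
Log2 ratio of CPM between 7 pairs of libraries (rows) for each gene (panels), over all (squares), non-cycling (circles) and cycling barcodes (triangles), with exact conditional binomial 95% intervals; dashed lines mark 2-fold. Slc7a5 in WT DN4 γδ+ over DN3b γδ+ is the farthest point at -2.59, and Slc3a2 stays within -0.38 and 0.46.

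Slc7a5 reaches the surface paired with Slc3a2, and the ratio of UMIs of both genes within a library does not depend on scaling. Per 100 Slc3a2 UMIs there were 15.2 Slc7a5 UMIs (14.2 to 16.2) in WT DN3a, 30.6 in DN3b γδ− and 24.0 in DN3b γδ+. DN4 γδ− had 34.3 (33.5 to 35.2) and DN4 γδ+ 8.93 (8.23 to 9.68), while Lat-KO DN3 γδ− had 7.92 (7.32 to 8.56) and γδint 16.9. Over non-cycling barcodes the ratio ran from 4.14 (3.48 to 4.88) in WT DN4 γδ+ to 24.7 (20.3 to 29.9) in WT DN4 γδ−, and over cycling ones from 15.1 in Lat-KO DN3 γδ− to 34.9 in WT DN4 γδ−. It was higher in cycling barcodes in every library, by the least in WT DN3b γδ+, at 24.5 (23.7 to 25.2) against 19.1 (16.4 to 22.3). The DN4 subsets of the αβ and γδ paths thus stood at the ends of the WT range. These are ratios of transcript tags at 3′ ends and give no ratio of proteins.

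**Figure D5:**
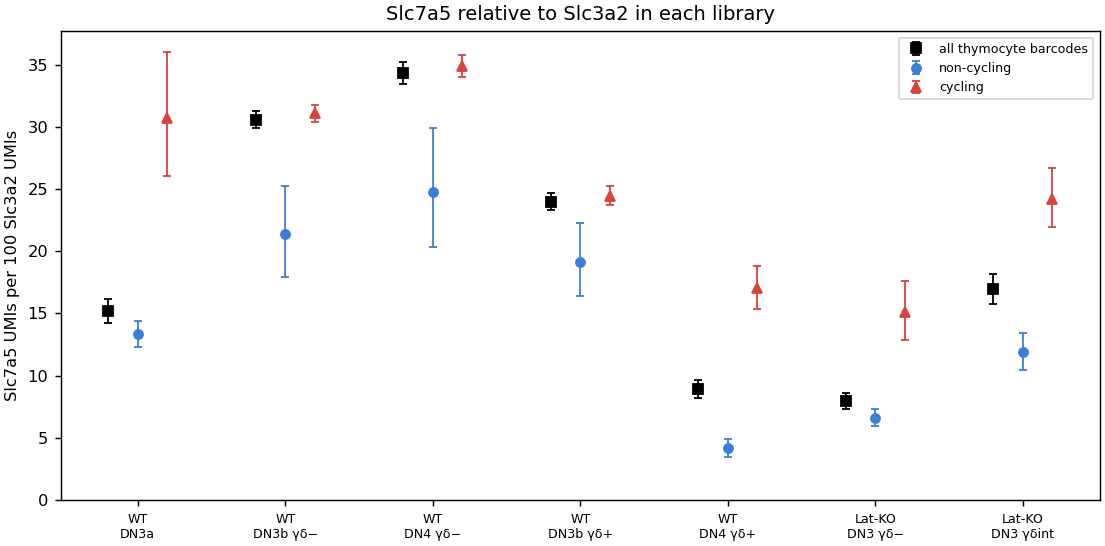
Slc7a5 UMIs per 100 Slc3a2 UMIs (vertical axis from 0) in the 7 libraries over all, non-cycling and cycling thymocyte barcodes, with exact binomial 95% intervals. WT DN4 γδ− is highest at 34.3 over all barcodes, and WT DN4 γδ+ and Lat-KO DN3 γδ− are lowest at 8.93 and 7.92.

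Within each library, the shares of barcodes with a UMI of the other genes were set side by side for barcodes with and without a Slc3a2 UMI, at 4000 UMIs. In WT DN4 γδ−, Slc7a5 was found in 12.6% (11.5 to 13.7) of barcodes with Slc3a2 and in 11.3% (10.7 to 12.04) of those without. In WT DN4 γδ+ the shares were 2.44% (1.85 to 3.16) and 2.95% (2.49 to 3.48). The ratio of the 2 shares ran from 0.827 to 1.16 for Slc7a5, 0.941 to 1.06 for Tfrc and 0.932 to 1.07 for Slc1a5 over the 7 libraries. Over non-cycling barcodes it ran from 0.592 to 1.55, 0.873 to 1.17 and 0.781 to 1.16, and over cycling ones from 0.708 to 1.16, 0.769 to 1.065 and 0.829 to 1.105. In 0 libraries were the intervals apart with the higher share beside Slc3a2, in any of these sets of barcodes, although separate intervals can overlap where a difference exceeds its own counting error. Among the closest to parting in that direction were cycling barcodes of WT DN3b γδ− for Tfrc, at 25.7% with Slc3a2 and 24.1% without. Those of WT DN4 γδ− for Slc7a5 were at 13.2% and 11.7%. Gaps the other way were seen too. In cycling barcodes of WT DN4 γδ+, Tfrc was at 16.5% (13.3 to 20.2) with Slc3a2 and 21.5% (19.04 to 24.1) without. In its non-cycling barcodes Slc7a5 was at 1.21% (0.71 to 1.93) and 2.04% (1.56 to 2.63). At this depth a barcode that holds a transcript can yield no UMI of it, so a weak link between the genes can be missed.

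Beyond the 4 genes, listed genes of iron handling and of amino-acid supply were counted in the same fit, beside the 26.0% of all genes called higher and 22.3% lower. Of 26 iron genes 24 could be tested, and 10 were called higher and 2 lower by edgeR, with a median log2 difference of 0.20 against -0.02 for all genes. With scaling by total counts the calls were 5 and 5. Steap3, a reductase of endosomal iron, had 0.52 ± 0.14 (edgeR adjusted p = 0.00879). Ftl1, the ferritin light chain, fell by 0.37 (edgeR adjusted p = 1.30e-04), and Fbxl5, part of the ubiquitin ligase that degrades an iron regulatory protein, fell by 0.21 (edgeR adjusted p = 0.0334). Fth1, the ferritin heavy chain, which was named after its values were seen, had 0.18 ± 0.05 (edgeR adjusted p = 0.00879). Scaling by total counts kept the calls of Steap3, Ftl1 and Fbxl5 but not that of Fth1 (edgeR adjusted p = 0.48). Thinned to 4000 UMIs, Ftl1 and Fbxl5 kept theirs, while Steap3 (edgeR adjusted p = 0.38) and Fth1 (edgeR adjusted p = 0.5565) did not. Over 21 alternatives, Ftl1 was called in 20, Fbxl5 in 16, Steap3 in 14 and Fth1 in 12.

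Across WT stages Fbxl5 was lower in both DN3b subsets than in DN3a. Its log2 ratios were -1.32 (γδ−) and -1.74 (γδ+), before the TMM shifts of 0.36 and 0.32. Ftl1 (1.15) and Slc11a2 (1.10), the divalent metal transporter DMT1, were higher in DN4 γδ+ than in DN3b γδ+, before the TMM shift of -0.30. In these 3 comparisons 1, 1 and 2 iron genes were past 2-fold higher and 1, 1 and 1 lower, of 13, 12 and 13. Of all genes 26.1%, 24.9% and 17.8% were past 2-fold in either direction.

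Among other amino-acid transporters calls went both ways. Of 31 listed, 20 could be tested, and 3 were called higher and 4 lower in cycling barcodes (3 and 7 with scaling by total counts), with a median of -0.18. Slc7a1, a transporter of arginine and other cationic amino acids, had 0.57 ± 0.12 (edgeR adjusted p = 0.00227), and Slc36a4, scarce at 0.616 to 3.45 CPM, had 0.68 ± 0.17 (edgeR adjusted p = 0.00784). Slc43a2 (LAT4), a transporter of large neutral amino acids, fell by 0.87 (edgeR adjusted p = 9.18e-05), and Slc38a9, the lysosomal arginine sensor of the mTORC1 pathway, fell by 0.63 (edgeR adjusted p = 5.38e-05). Thinned to 4000 UMIs, the call of Slc36a4 was lost (edgeR adjusted p = 0.0623). Slc43a2 ran opposite to Slc7a5 on the γδ path, at 5.21 CPM in DN3b γδ+ and 28.7 CPM in DN4 γδ+, a log2 ratio of 2.46 (2.35 to 2.57). Slc38a9 was lower in DN3b γδ− and DN3b γδ+ than in DN3a, at -1.50 and -1.79, and higher in DN4 γδ+ than in DN3b γδ+, at 1.32. In those 3 comparisons 0, 0 and 2 transporters were past 2-fold higher and 1, 1 and 0 lower, of 7, 7 and 8 with enough counts, beside 26.1%, 24.9% and 17.8% of all genes past 2-fold in either direction.

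Of the 30 genes of mTORC1, the kinase complex that senses amino acids, and of its sensors, 6 were called higher and 2 lower in cycling barcodes (3 and 10 with scaling by total counts), with a median of -0.03. Eif4ebp1, a substrate of the complex, had 0.56 ± 0.14 (edgeR adjusted p = 0.00645), and its activator Rheb had 0.48 ± 0.07 (edgeR adjusted p = 2.60e-04). Castor2, of the CASTOR family that includes the arginine sensor Castor1, fell by 0.67 (edgeR adjusted p = 3.76e-04), and Sesn3, of the sestrins, which restrain the complex, by 0.38 (edgeR adjusted p = 0.0208). Thinned to 4000 UMIs, Eif4ebp1 (edgeR adjusted p = 0.531) and Sesn3 (edgeR adjusted p = 0.127) lost their calls, and they were called in 16 and 17 of 21 alternatives. The lowest log2 difference of Eif4ebp1 among these was 0.14. Across stages, Eif4ebp1 was higher in DN3b γδ− than in DN3a (1.32) and lower in DN4 γδ+ than in DN3b γδ+ (-1.09). Sesn3 (-1.73) and Sesn1 (-1.15) were lower in DN3b γδ− than in DN3a. On the γδ path Sesn3 did not fall, at 36.3 CPM in DN3a, 48.3 in DN3b γδ+ and 91.7 in DN4 γδ+. Rptor was lower in DN3b γδ+ than in DN3a (-1.02), and Sesn1 was higher in DN4 γδ+ than in DN3b γδ+ (1.52). In these comparisons 1, 0 and 1 genes of the list were past 2-fold higher and 2, 1 and 1 lower, of 16, 16 and 13, beside the same 26.1%, 24.9% and 17.8% of all genes.

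Of 20 genes of the amino-acid response, many of them targets of the factor ATF4, 16 could be tested, and 9 were called higher and 2 lower in cycling barcodes (8 and 2 with scaling by total counts), with a median of 0.33. Mthfd2, of mitochondrial folate metabolism, had 1.40 ± 0.13 (edgeR adjusted p = 2.55e-05), and Psat1, of serine synthesis, had 1.39 ± 0.18 (edgeR adjusted p = 0.0001). Ddit4 and Ddit3, stress-induced genes of which the first encodes an inhibitor of mTORC1, fell by 0.83 (edgeR adjusted p = 1.65e-04) and 0.46 (edgeR adjusted p = 0.0019). Mthfd2 was higher in DN3b γδ− and DN3b γδ+ than in DN3a (2.28 in both) and Psat1 too (2.08 and 1.94), with Ddit4 (-1.77) and Ddit3 (-1.22) lower in DN3b γδ−. In DN4 γδ+ over DN3b γδ+ the order turned, with Shmt2 at -1.55 and Phgdh at -1.47, both of serine and glycine metabolism, and Ddit4 at 1.70 and Ddit3 at 1.14. In these comparisons 4, 4 and 2 genes were past 2-fold higher and 2, 0 and 4 lower, of 10, 9 and 9, again beside 26.1%, 24.9% and 17.8% of all genes.

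Over the 14 sums the levels of the 4 genes, as log2(CPM + 1), did not form one pattern. Pearson's r was -0.72 for Tfrc and Slc3a2, 0.32 for Tfrc and Slc7a5, -0.40 for Tfrc and Slc1a5, -0.08 for Slc3a2 and Slc7a5, 0.65 for Slc3a2 and Slc1a5 and 0.47 for Slc7a5 and Slc1a5. The sums share libraries, depth and scaling, and these values are descriptions. Among 7385 genes the closest to Tfrc were Hnrnpd (r = 0.93), Kif2a, Wbp4, Ppp2r2d and Szrd1, down to 0.89. Closest to Slc7a5 were Rnf227 (0.99), Shmt1, Pole3, Ptges3 and Dnph1, down to 0.97. For Slc3a2 they were Foxp4 (0.96), Atf6b, Slc48a1, Il17rb and Cd3e, down to 0.91, and for Slc1a5 Trp53rka (0.95), Msh3, Grpel2, Bcs1l and B4galt4, down to 0.93. No gene was among the 5 closest of more than 1 member.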

How the data were processed

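Single-cell 3′ RNA libraries (10x v3 chemistry) of 7 sorted thymocyte subsets, 1 per group, were analysed from UMI counts per gene and barcode. The deposited counts were made by the authors with Cell Ranger (4.0.0 per the file headers, 5.0.1 in the processing notes) on mm10 with an edited Trdc reporter added, and were neither scaled nor corrected. The study's filter was applied (a minimum of 200 genes, mitochondrial UMIs up to 15%). No doublet caller was run, and an alternative left out the 8% of barcodes with the most UMIs per library. B cell barcodes had at least 10 UMIs of Cd79a, Cd79b and Ms4a1 and 0 of Cd3d, Cd3e and Cd3g.

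UMIs were summed per library and state and divided by their total (CPM). Intervals are exact at 95% (Poisson, Clopper-Pearson or conditional binomial), since 1 library per group allows no test between groups. Cycling and non-cycling sums were compared with edgeR 4.0.16 (quasi-likelihood, TMM, filterByExpr, library as a block, Benjamini-Hochberg over 13485 genes, threshold 0.05), with DESeq2 1.42.0 as an alternative (R 4.3.3, Python 3.11.15). The sums are of separate barcodes of 1 library each. The paper describes a pool of WT thymi that was sorted into the 5 WT subsets, and a joint workflow for both Lat-KO subsets. No spread between animals was therefore tested. Tested on simulated data for this comparison over 13485 genes, the fit recovered 80 of 100 genes changed 2-fold and 45 of 100 changed by a smaller fold, the square root of 2. It also called 6 unchanged genes. Only these few genes were changed, each by the same fold in every library. In the data many genes differed, and by amounts that varied between libraries, so these rates need not hold for them. Cycling UMIs at 4000 UMIs per barcode were counted on thinned barcodes. Genes named from the lists are, per list, the 2 highest and 2 lowest past the threshold or past 2-fold in each of 3 stage comparisons, and per member the 5 closest by correlation. Some results under this rule are not reported here. The members and lists were chosen with earlier results of these data known. The hairpin search was added after the files had been examined.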

Additional observations from a re-analysis of the deposited data

How the results depend on the processing

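Of the counts of members past 2-fold between libraries (higher and lower counted apart, in 7 comparisons and 11 alternatives), 150 were unchanged and 4 changed. With TMM scaling 2 members were past 2-fold higher in WT DN3b γδ− over DN3a, and over cycling barcodes alone the 3 counts of 1 became 0. In the cycling fit, which called 3 members, 28 listed genes higher and 10 lower, the counts were as follows. Thinning to 4000 UMIs gave 0 members higher, 12 listed genes higher and 1705 of all genes higher. Without the library block 0 members and 0 listed genes were called in either direction, with 364 of all genes higher and 44 lower. Without the barcodes with the most UMIs 14 listed and 2261 of all genes were higher. The WT libraries alone gave 13 and 2313 higher. Listed genes called lower numbered 18 with at least 2000 UMIs and 20 with DESeq2. All genes called lower rose as well, from 3005 to 3536 and 3448. Listed genes lower numbered 16 with thinned counts and states from all UMIs. They numbered 24 with scaling by total counts, where 4643 of all genes were lower. The last 2 alternatives were chosen after seeing the data. Leaving out each library in turn gave 9 to 17 listed genes lower, the 17 without Lat-KO DN3 γδint. Slc7a5 and Tfrc kept their calls in 19 of 21 alternatives each (not without the block or thinned to 4000 UMIs), and Slc1a5 in 15 of 21, with an adjusted p of up to 0.386 by edgeR. Slc3a2, called in 0 of 21, had a log2 difference of -0.01205 with at least 2000 UMIs, -0.04813 thinned, -0.08254 with scaling by total counts, -0.03974 thinned with states from all UMIs, and -0.001536 (without Lat-KO DN3 γδint) to 0.0721 when 1 library was left out. The cause of these changes was not tested. No paired analysis was possible because each group has 1 library, as far as the ratios between subsets go, while the cycling fit pairs the sums of each library. Depth limits the shares of the scarcest gene, Slc7a5, and the few B cell barcodes give wide intervals for the levels and shares in B cells.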
